A study of Mus musculus with 2 samples.

Results

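Replication timing was examined at 10 mouse genes that select and license replication origins, out of 21225 protein-coding genes with a value. They were the origin recognition complex genes Orc1, Orc2, Orc3, Orc4, Orc5 and Orc6, the loading factor genes Cdc6 and Cdt1, the inhibitor gene Gmnn (geminin) and Lrwd1, which encodes a protein that binds the origin recognition complex. The genes were chosen by function and by the score itself: Orc4 was singled out for its late score in this table, so the scores below are a description and were not tested. The samples were 1 early S phase and 1 late S phase library of mouse 46C embryonic stem cells (strain 129P2/Ola), grown with serum, serum replacement and leukemia inhibitory factor. Cells were given 50 µM BrdU, which is built into DNA in place of thymidine as it is copied, for 2 h and were sorted by DNA content. From 10000 cells per fraction the DNA with BrdU was recovered with an antibody, amplified over the whole genome and sequenced on an Ion Torrent instrument. The labels name no knockout and no agent besides BrdU, and the groups differ in the part of S phase that was sorted.

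The deposited value is 1 score per genomic position, made by the authors from the early against the late library and smoothed over 300 kb. Positive scores are read here as early replication, from the order of the fractions in the name of the deposited table. No score is read as a fold, because its log base and zero point are unstated, and the read depth is unknown. There is 1 library per fraction, so no value has a replicate error and no test between genes was possible. The score holds no RNA level, so neither the cell type label nor the expression of any gene below could be checked. A gene took the score of the position nearest to its midpoint, which was at most 2.99 kb away for these 10 genes.

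Origins are marked before S phase by the origin recognition complex, a ring of AAA+ family subunits (Orc1 to Orc5) with Orc6 beside it. Cdc6 joins the complex, and together with Cdt1 it loads the Mcm2 to Mcm7 helicase around DNA; this step is called licensing. Geminin holds Cdt1 back once S phase has begun, so that no stretch of DNA is licensed again in the same cycle. Stem cells divide quickly and pass much of their cycle in S phase, and in mammalian cells generally, gene-rich and active regions replicate early and gene-poor regions late.

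Of the 10 licensing genes 9 had a score above 0 and Orc4 alone had a score below 0. Over all protein-coding genes 73.5% lay above 0, so 9 of 10 is not far from the share of genes at large. The median of the 10 scores was 1.12 (quartiles 0.82 and 1.56), against 1.02 (quartiles -0.08 and 1.52) for all protein-coding genes. The order ran from Cdc6 at 1.62 and Lrwd1 at 1.61 through Orc6 and Cdt1, both at 1.56, to Orc2 at 1.16, Orc1 at 1.08, Gmnn at 0.97, Orc3 at 0.77, Orc5 at 0.45 and Orc4 at -1.07. With no replicates, the only spread at hand is that over space, the lowest to the highest score within 150 kb of a midpoint. That range describes the profile around a gene and is not an error of its score. The ranges of neighbours in the order overlapped, except at 2 steps. Cdt1 and Orc2 differed by 0.39, and Orc5 and Orc4 by 1.52. Orc4 differed from the median of the other 9 genes by -2.24.

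**Figure D1:**
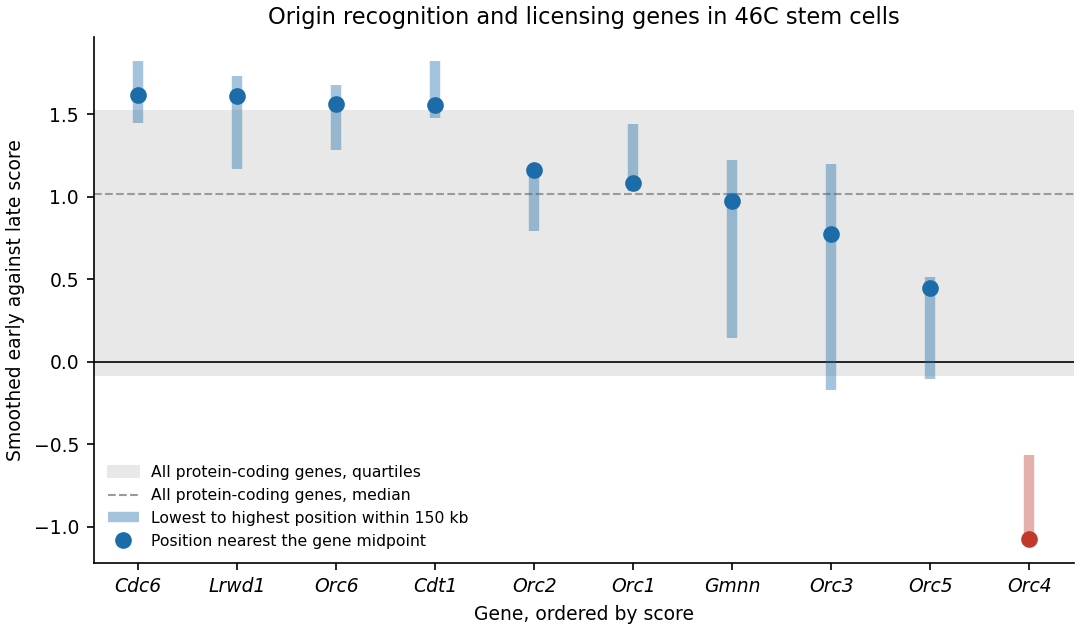
Smoothed early against late score (vertical axis, no unit) of the 10 genes, ordered by score along the horizontal axis. Points are the position nearest each gene midpoint, bars the lowest to highest score within 150 kb (not an error), the grey band the quartiles of all protein-coding genes and the dashed line their median of 1.02. Blue marks scores above 0 and red marks Orc4, at -1.07 the only gene below 0; its bar, from -1.08 to -0.56, overlaps no other.

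Among the subunit genes, Orc1, Orc2 and Orc6 lay in early runs longer than 1 Mb, 1625, 592 and 532 kb from the nearest change of sign; the median of protein-coding genes was 497 kb. Orc1, which encodes the largest subunit (chromosome 4, 108575705 to 108616030, mm10), scored 1.08 and lay in an unbroken early run of 4.04 Mb, and around it 91.6% of positions within 2 Mb were above 0. Its score differed by -0.20 from the median of protein-coding genes of its chromosome, 1.28. Orc6 (chromosome 8, 85299632 to 85308279), the gene of the subunit outside the ring, scored 1.56 in an early run of 2.81 Mb. On its lower-coordinate side all positions within 2 Mb were above 0, and on the other side a late dip to -0.98 lay 1.00 Mb away. The score changed sign there between Itfg1 at 0.28 and Phkb, a phosphorylase kinase gene, at -0.50. Orc2 (chromosome 1, 58462771 to 58505113) scored 1.16 at a local peak. In 50 kb bins the score was 0.09 at 350 kb below its midpoint, 1.16 at the midpoint and 0.71 at 400 kb above. It then rose to 1.63 at 1.35 Mb above. The lower-coordinate side of Orc2 held 29.4% of positions above 0 and the higher-coordinate side 100%. The gene lay 592 kb from the change of sign, with Kctd18 at 0.23 before that change and Spats2l at -0.18 beyond it.

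Orc3 and Orc5 were early genes on short early islands. Around Orc3 50.8% of positions within 2 Mb were above 0 and around Orc5 77.2%, against a median of 64.1% for protein-coding genes. Within 1 Mb of Orc5 the share was 55.9%, so its late flanks were local. Orc3, whose product binds that of Orc2 (chromosome 4, 34566781 to 34614963), scored 0.77 and sat 116 kb from the lower end of an early run of only 0.82 Mb. In 50 kb bins the score there climbed from -0.63 at 200 kb below the midpoint to 0.76 at the midpoint and 1.27 at 200 kb above it. Within the gene itself it ran from 0.64 to 0.86 over 8 positions. The nearest coding gene across the change of sign was Spaca1, known for its sperm acrosome protein, at -1.05. Orc5 (chromosome 5, 22486480 to 22550338) scored 0.45, the lowest of the early members, in a run of 0.25 Mb, shorter than the smoothing width of 300 kb. The score reached no more than 0.51 on this island and the bins beside it went down to -0.67 at 350 kb below and -0.93 at 450 kb above the midpoint. Inside the dip on the lower side lay Reln, which encodes the neuronal guidance protein reelin, at -0.52 and 404 kb from the Orc5 midpoint. When runs under 300 kb were joined to the run around them, Orc5 became part of a late run of 1.14 Mb, although its own score stayed at 0.45. An island this narrow is not resolved by a 300 kb smoothing, and its true height and width cannot be read from the score.

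The loading factor genes and Lrwd1 had scores of 1.56 to 1.62, a range that also holds the subunit gene Orc6. Cdc6 (chromosome 11, 98907709 to 98923942), whose ATPase product completes the ring on DNA, scored 1.62, above 83.6% of protein-coding genes, in an early run of 5.58 Mb with 161 other coding genes within 2 Mb. The change of sign was 470 kb away, among keratin genes, between Krt28 at 0.11 and Krt10 at -0.03, and the score then sank to -1.38 at 0.75 Mb from Cdc6 and returned to 2.04 at 1.90 Mb. The change in score across that boundary, from 200 kb on one side to 200 kb on the other, was 2.83, larger than at the nearest boundary of 98.3% of protein-coding genes. Cdt1 (chromosome 8, 122568015 to 122573130) scored 1.56 in a run of 6.66 Mb, and Lrwd1 (chromosome 5, 136123066 to 136136074) 1.61 in a run of 7.16 Mb. No position within 2 Mb of either gene was below 0, as for 7.40% of protein-coding genes. Their lowest scores within 2 Mb differed, at 0.06 for Cdt1 and 0.69 for Lrwd1, so the surroundings of Cdt1 came close to 0 while those of Lrwd1 did not.

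Gmnn, the gene of the Cdt1 inhibitor (chromosome 13, 24751845 to 24761937), had an early score in mostly late surroundings. Its score was 0.97, close to the coding median, yet 26.2% of positions within 2 Mb were above 0, and the median on the higher-coordinate side was -0.95. Only Orc4 among the 10 genes had a lower share, at 23.4%. Within 1 Mb the order was reversed, with 29.3% for Gmnn and 40.3% for Orc4. The median share within 2 Mb of protein-coding genes was 64.1%. These shares depend on the zero point. With zero at the autosomal median of -0.30, the share within 2 Mb was 46.7% for Gmnn and 33.2% for Orc4. The early run around Gmnn measured 0.48 Mb, peaked at 1.25 and ended 174 kb below the midpoint, where Ripor2 at 0.21 was the last coding gene before the change of sign and Cmah, a sialic acid hydroxylase gene, at -0.43 the next. Above the gene the binned score dropped from 1.19 at 200 kb to -0.70 at 400 kb. Within 2 Mb the score changed sign 6 times, more often than around any other member.

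**Figure D2:**
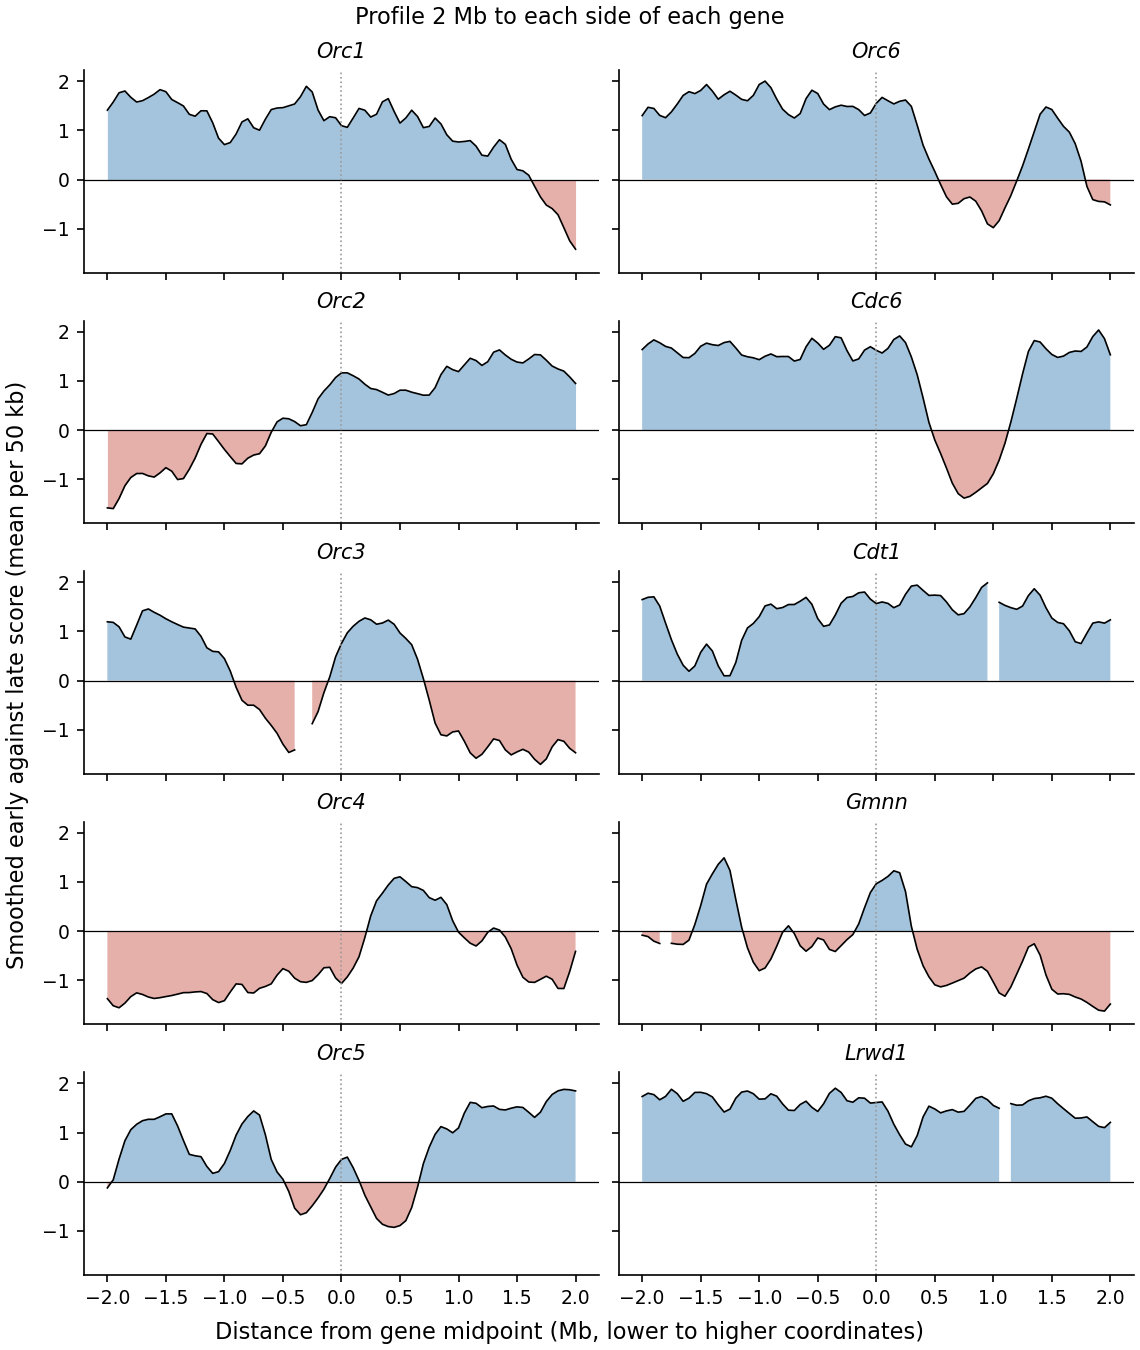
Mean score per 50 kb bin (vertical axis, no unit) against distance from the gene midpoint in Mb (horizontal axis), 1 panel per gene, blue above and red below 0; gaps are bins without a position. Cdt1 and Lrwd1 are above 0 throughout, Orc3, Orc5 and Gmnn sit on early islands of 0.82, 0.25 and 0.48 Mb, and Orc4 lies in red with an early peak of 1.11 at 0.50 Mb above it.

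Orc4 encodes a core ATPase subunit of the complex (chromosome 2, 48902824 to 48952902), and its score of -1.07 lay above that of only 8.21% of protein-coding genes. The 8 positions inside the gene ranged from -1.08 to -1.04. The gene is 50.1 kb long, shorter than the 300 kb smoothing, so a narrow range is built in and its parts have no separate measurement. Its chromosome was not late as a whole, with a coding median of 1.05, from which Orc4 differed by -2.13. The late run that holds the gene stretched from 45062682 to 49139657, or 4.08 Mb, with a median of -1.27 over 609 positions. Its lower end is set by an early stretch of 0.11 Mb, narrower than the smoothing; with runs under 300 kb joined to those around them it measured 9.80 Mb. It held 4 coding genes in whole or part, or 0.98 per Mb: Zeb2, a zinc finger repressor gene cut by its lower end, the activin receptor gene Acvr2a, Orc4 and Mbd5, the gene of a methyl-CpG-binding domain protein. Between Zeb2 and Acvr2a there were 3.70 Mb without a coding gene, with a median score of -1.30. Orc4 had 7 other coding genes within 2 Mb, and 1.06% of coding genes had fewer; the next lowest member, Orc3, had 27.

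The gene lay at the edge of this late run and not in its depth. Its midpoint was 215 kb from the change of sign on the higher-coordinate side and 3865 kb from the other end of the run. On the lower side no position within 2 Mb was above 0 and the median was -1.24, while on the higher side 45.0% were above 0 and the median was -0.08. In 50 kb bins the score was -0.73 at 100 kb below the midpoint, -1.06 at the midpoint, -0.75 at 100 kb above it, -0.13 at 200 kb, 0.62 at 300 kb and 1.11 at 500 kb. The lower value at the midpoint than at 100 kb on either side is narrower than the 300 kb smoothing and is not resolved. From its own score the profile climbed by 2.19 to a peak of 1.12 at 488 kb. The early run above was 0.77 Mb long and held, in whole or part, Epc2, whose product belongs to a histone acetyltransferase complex, at 0.95, the kinesin gene Kif5c at 0.63 and Lypd6b at 0.26. Mbd5 crossed the boundary: it scored -1.04 at its lower end beside Orc4, -0.11 at its midpoint and 0.89 at its higher end. Acvr2a, on the late side, scored -0.87.

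**Figure D3:**
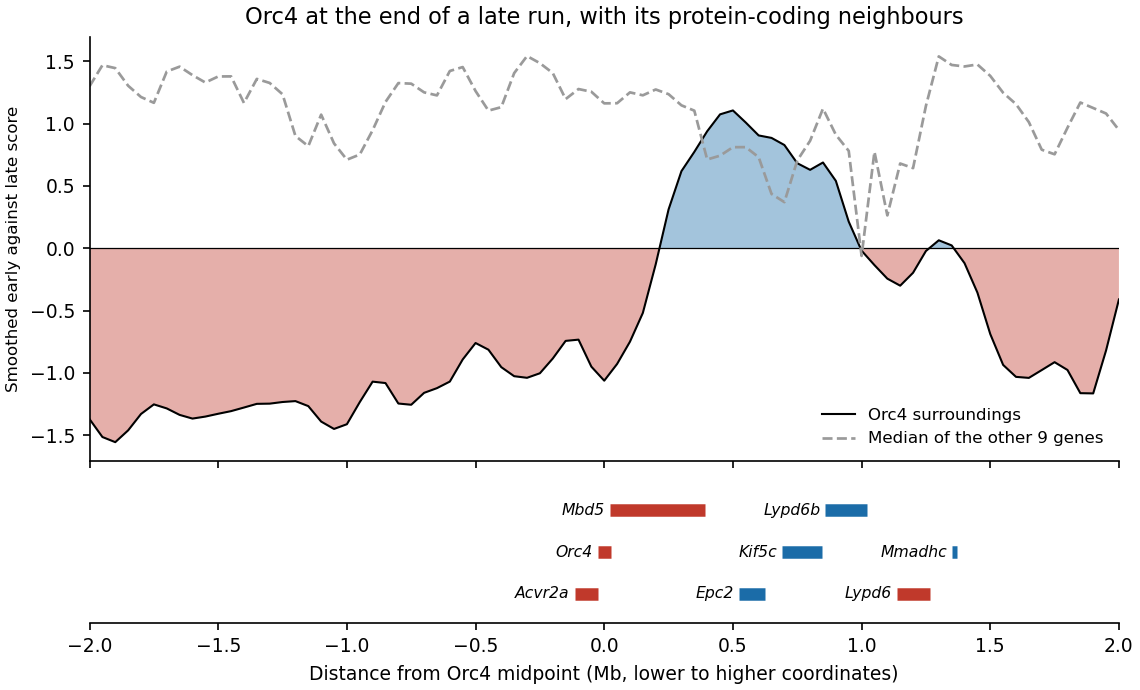
Upper panel, mean score per 50 kb bin (no unit) around Orc4 (black line, blue above and red below 0) and the median of the other 9 genes aligned in the same way (dashed); lower panel, protein-coding genes drawn to scale, blue or red by the sign of their midpoint score; both against distance from the Orc4 midpoint in Mb. The score crosses 0 at 215 kb above Orc4, inside Mbd5, and no coding gene lies further below than Acvr2a within 2 Mb.

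Set against the other 9 genes bin by bin, Orc4 was lower than all of them in 34 of 40 bins on its lower-coordinate side and in 3 of 40 on its higher-coordinate side. On the higher side 8 bins of Orc4 exceeded the median of the others and 17 were above 0. Bins were read by coordinate, and the genes were not turned by strand. Bins of 50 kb are narrower than the 300 kb smoothing, so neighbouring bins are not separate measurements. Orc4 was chosen for its late score, and its late run reached 3865 kb below its midpoint. The count on the lower side therefore largely restates that choice.

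Among genes of like score, Orc4 was on the near side of the range of distances to a change of sign. Within 0.1 of its score lay 778 other protein-coding genes, with a median distance of 510 kb (quartiles 284 and 1024 kb), and 108 of them, or 13.9%, were nearer than the 215 kb of Orc4. This width was chosen after the values were seen. Across the licensing genes Orc3, Orc5 and Gmnn lay within 200 kb of a change of sign, 3 of 10, against 24.0% of all protein-coding genes. Membership of this set depends on the zero point. With zero moved to the autosomal median of -0.30, Gmnn left it, at 306 kb, and Orc4 joined it, at 186 kb. Orc3 and Orc5 stayed, at 156 and 194 kb. With the zero point unmoved, Orc3, Orc5 and Gmnn also sat in runs shorter than 1 Mb, against 22.2% of all protein-coding genes. Both shares are near those of genes at large, and the distances were chosen with the values in view. The median distance to a change of sign was 501 kb over the 10 genes and 497 kb over all protein-coding genes.

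**Figure D4:**
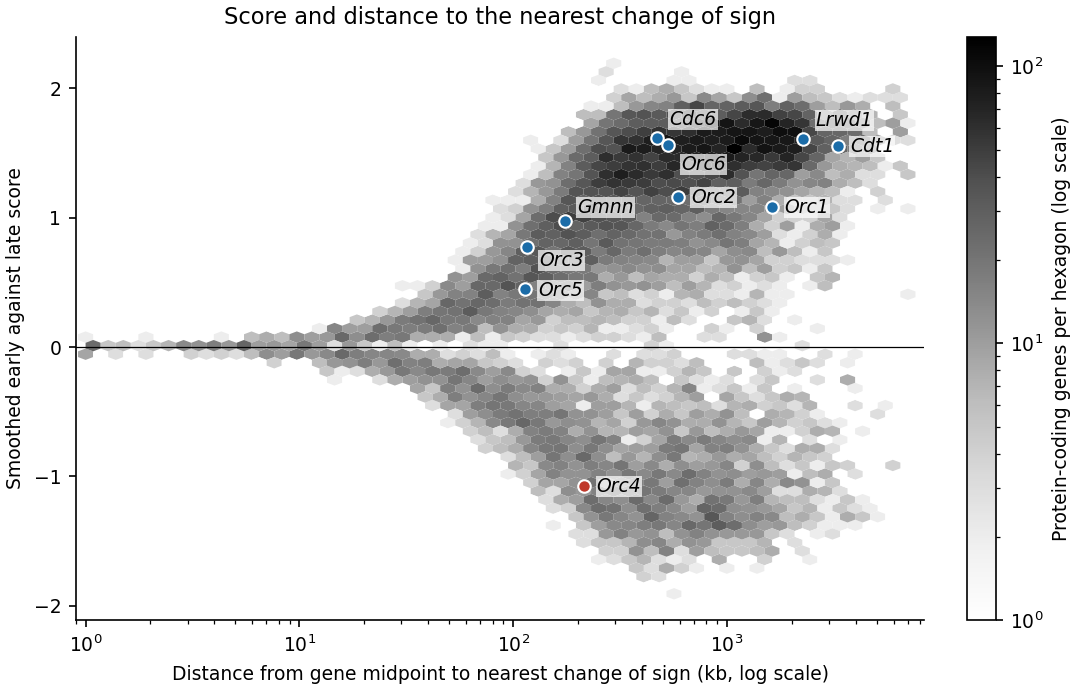
Score (vertical axis, no unit) against distance from the gene midpoint to the nearest change of sign in kb (horizontal log axis; distances under 1 kb are drawn at 1 kb); grey shading counts protein-coding genes per hexagon on a log scale. Of the 10 genes, Orc3 and Orc5, at 116 and 114 kb, lie nearest to a change of sign and Cdt1, at 3283 kb, farthest. Orc4, at 215 kb, lies below the lower quartile, 284 kb, of genes within 0.1 of its score.

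Other genes with a profile like that of Orc4 were sought by the mean absolute difference in score over up to 81 bins of 50 kb. Of 19319 genes compared, Steap4 (0.25) and its neighbour Sri (0.26) on chromosome 5 and Gm5681 (0.27) on chromosome 17 were nearest, against a median difference of 1.32. Steap4, a metalloreductase gene, scored -0.62 and lay 248 kb below a change of sign, with 23.5% of positions within 2 Mb above 0. Among the other licensing genes the nearest to Orc4 was Orc2 at 1.05 and the farthest Cdc6 at 2.29. With 1 Mb to each side in place of 2 Mb, other genes took these places (0 of the 3 stayed), so the likeness depends on the width compared.

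Annotated start sites are given as sequence context and hold no replication timing. The RefSeq promoter table (GRCm38.p6, the coordinates of mm10) held 12 windows for 9 of the 10 genes, Gmnn not among them, each from 250 bases before to 50 after an annotated start. For Orc4 it gave 3 windows on the minus strand. The one at the boundary with Mbd5 is printed first because both genes start in it: the Orc4 start at 48949267 and the Mbd5 start at 48949508 lie 241 bp apart and point away from each other. The annotated spans of Orc4 and Mbd5 overlap by 3404 bp, and those of Orc4 and Acvr2a by 441 bp, so a 300 kb smoothed score gives these neighbours no separate measurement. The others are the promoter of Orc5, on the narrow island, and those of Orc1 and Cdt1, inside long early runs. Capitals mark CpG dinucleotides.
Orc4, chr2:48949218-48949517, minus strand: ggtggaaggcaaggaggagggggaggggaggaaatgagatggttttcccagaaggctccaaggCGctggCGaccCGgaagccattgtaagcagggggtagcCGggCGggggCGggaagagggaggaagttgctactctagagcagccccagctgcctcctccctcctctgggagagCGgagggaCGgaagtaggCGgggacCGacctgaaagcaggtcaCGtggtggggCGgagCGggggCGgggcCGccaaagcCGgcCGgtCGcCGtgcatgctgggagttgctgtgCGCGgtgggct
Orc5, chr5:22550289-22550588, minus strand: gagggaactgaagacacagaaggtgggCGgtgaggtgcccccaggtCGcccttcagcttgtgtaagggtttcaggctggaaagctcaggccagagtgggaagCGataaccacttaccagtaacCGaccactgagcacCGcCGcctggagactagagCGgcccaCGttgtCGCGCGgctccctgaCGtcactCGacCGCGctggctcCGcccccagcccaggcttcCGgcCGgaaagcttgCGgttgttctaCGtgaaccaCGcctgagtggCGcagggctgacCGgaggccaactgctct
Orc1, chr4:108579204-108579503, plus strand: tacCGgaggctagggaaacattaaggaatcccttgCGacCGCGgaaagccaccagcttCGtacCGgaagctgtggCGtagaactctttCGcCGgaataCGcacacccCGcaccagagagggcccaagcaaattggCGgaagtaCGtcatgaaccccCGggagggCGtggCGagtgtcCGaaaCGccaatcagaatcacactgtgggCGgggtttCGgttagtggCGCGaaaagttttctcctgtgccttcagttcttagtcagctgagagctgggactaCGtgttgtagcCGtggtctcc
Cdt1, chr8:122567765-122568064, plus strand: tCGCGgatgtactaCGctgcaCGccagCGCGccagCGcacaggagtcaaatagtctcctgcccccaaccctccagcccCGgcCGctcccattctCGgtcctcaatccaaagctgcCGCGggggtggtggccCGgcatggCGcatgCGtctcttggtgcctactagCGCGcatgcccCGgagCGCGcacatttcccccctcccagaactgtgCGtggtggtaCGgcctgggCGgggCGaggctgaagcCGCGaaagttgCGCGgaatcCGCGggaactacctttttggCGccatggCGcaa

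Of the 4 printed windows that of Orc4 had the highest GC content and the fewest CpG. The printed Orc4 window held 21 CpG and 68.0% GC, Orc5 23 and 64.0%, Orc1 24 and 57.3%, and Cdt1 32 and 66.7%. The median over 21263 windows of protein-coding genes was 13 CpG and 56.3% GC. The other Orc4 windows, upstream of the printed one, held 6 and 4 CpG. The ranking holds for the printed windows only. Of the windows not printed, that of Cdc6 held 19 CpG and the first of Orc2 15, fewer than the printed Orc4 window. Those of Lrwd1, Orc3 and Orc6 held more, at 25, 29 and 30. The members' windows ranged from 1 CpG, in a second start of Orc2, to 32 in Cdt1. The letters TTTCGCGC or TTTGGCGC, forms of the E2F site, were searched on both strands and occurred in 2 of the 12 windows, those of Orc1 and Cdt1, and in 1.05% of protein-coding windows. Both E2F forms hold CpG, of which members' windows had a median of 22 and protein-coding windows 13. The E2F shares are therefore not like for like, and other forms of the site were not searched. CCAAT, on either strand, occurred in 5 of the 12 windows and in 38.2% of protein-coding windows. Sites of both motifs may share letters at their ends. Matches are letters only, and no binding was measured.

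Most genes of a wider pathway list scored above 0. The list was drawn up with earlier results of these data known, so the count below is a description and was not tested. Of 46 other genes of licensing and origin firing 44 lay above 0 and 2 below, with a median of 1.31, beside 73.5% of protein-coding genes above 0 and their median of 1.02. The 6 Mcm genes of the loaded helicase ranged from Mcm3 at 0.28, 88.0 kb from a change of sign, to Mcm7 at 1.28. All 17 genes that turn a licensed origin into a fork were above 0. Mtbp, which encodes a partner of the firing factor Ticrr, was lowest at 0.28, and Ccne1, which encodes cyclin E, highest at 1.75. The 11 genes of turnover of Cdt1 and its partners ranged from the F-box gene Skp2 at 0.46 to its cofactor gene Cks1b at 1.75. Among 7 genes of chromatin partners, Bend3 was lowest at 1.07 and Kat7, a histone acetyltransferase gene, highest at 1.92.

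The 2 late genes were relatives of core factors. Mcm9, a helicase relative known for its work in recombination and meiosis (chromosome 10, 53536315 to 53630006), scored -0.59, while the relatives Mcmbp and Mcm8 scored 1.11 and 1.26. Gmnc, a geminin relative known for multiciliated cells (chromosome 16, 26957235 to 26991675), scored -1.09, and the other relative, Mcidas, 1.34. Gmnc and Orc4 had nearly the same score, but Gmnc lay 1426 kb from a change of sign and Mcm9 1053 kb, against 215 kb for Orc4.

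**Figure D5:**
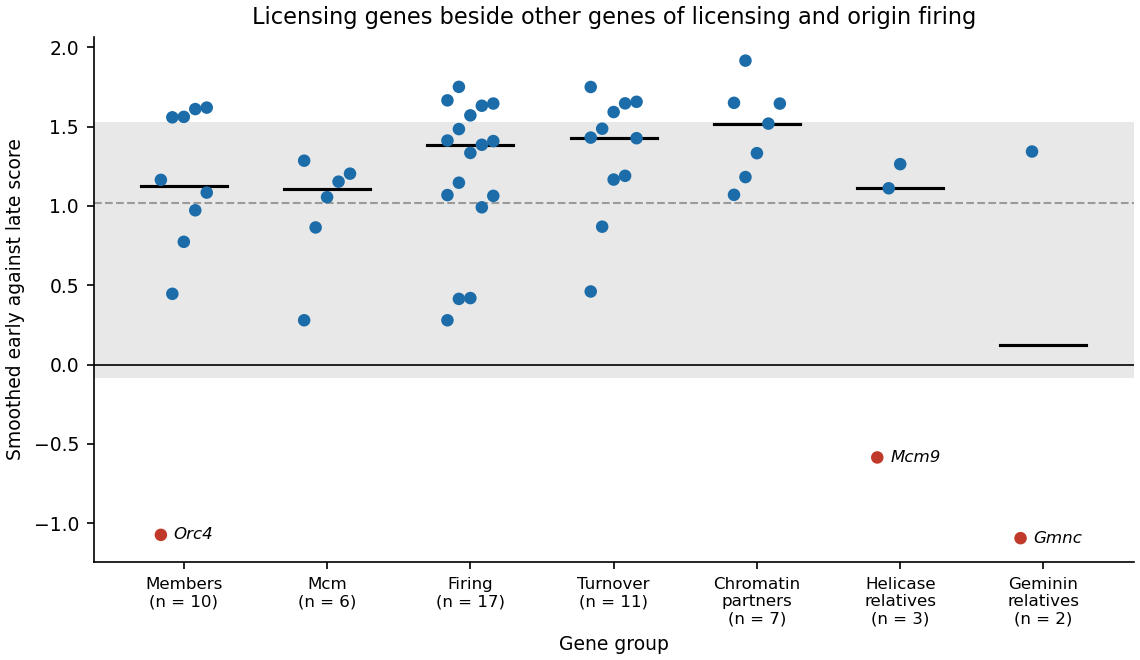
Score (vertical axis, no unit) of the 10 licensing genes, drawn as Members, and of 46 further genes in 6 groups (horizontal axis); each point is a gene, black bars are group medians, and the grey band and dashed line are the quartiles and median of all protein-coding genes. Red marks the genes below 0: Orc4 at -1.07, Mcm9 at -0.59 and Gmnc at -1.09.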

How the data were processed

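Per the labels' protocols, early and late S phase DNA labelled with BrdU was precipitated, amplified and sequenced, with 1 library per fraction. Per the submitters' processing notes, Bowtie2 and mm10 were used. The authors deposited 1 score per position, smoothed over 300 kb; how reads were counted and scaled is not given in the sources used here, and the depth is unknown. The table held 384798 positions, 384794 with a value, at a median spacing of 5.78 kb; 0 columns of per-sample values were left aside.

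Gene bounds came from a RefSeq table of GRCm38.p6, without exons; genes on scaffolds were left out. Each gene took the position nearest its midpoint within 100 kb (Python 3.11.15, numpy 2.4.6, pandas 2.3.3). Runs were neighbouring positions of the same sign, ended by a change of sign or a gap over 300 kb. Scripts were tested on a simulated profile. Members, lists and distances were chosen with earlier results of these data known. Named beside the members were pathway genes below 0, the highest and lowest of each pathway group, coding genes in and beside the late run of Orc4, those at changes of sign within 1 Mb, and the 3 genes most like Orc4. With 1 library per fraction no p-value is given. Alternatives moved the zero point, the point of the gene, the width and the runs; the transcription start was added after the data were seen.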

Additional observations from a re-analysis of the deposited data

How the results depend on the processing

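Moving the zero point to the autosomal median, using either gene end, or taking the median within 150 kb left 9 of 10 licensing genes and 44 of 46 pathway genes above 0. At annotated starts, an alternative chosen after seeing the data, these were 8 of 9 and 37 of 39 genes with a start. The difference of Orc4 from the median of the others was -2.23 and -2.21 at the gene ends, -2.05 with the local median, -2.40 at the starts, -2.27 against the mean and -2.16 against the other subunit genes. The late run of Orc4 measured 3.89 Mb with the moved zero point and 9.80 Mb with runs under 300 kb joined, when Orc5 fell in a late run of 1.14 Mb. The share of positions above 0 around Orc4 was 33.2% with the moved zero point, 40.3% within 1 Mb and 21.0% over equal bins, and that around Gmnn 46.7% with the moved zero point and 29.3% within 1 Mb. Of the 3 genes most like Orc4, 0 stayed within 1 Mb. No paired analysis was possible because there was 1 library per fraction and the authors joined both in the score. Depth is unknown, so small differences such as that between Orc6 and Cdt1 carry no error and set no order.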
